A study of Mus musculus with 3 samples.

Results

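The interferon system of the kidney was followed through 66 genes: the interferon-induced effector genes, the interferon regulatory factors (IRFs) and the STAT transcription factors. They were chosen by name, as every gene whose platform symbol began with one of a fixed set of stems (Ifit, numbered Ifi, Isg, Irf, Oas, Mx, Gbp and Stat genes, the immunity-related GTPases, and a few single genes such as Rsad2, Usp18, Bst2, Xaf1 and Ly6e), out of 18193 genes with a probe set of their own. They are measured by 102 probe sets. For the contrast between the interferon types, 33 were classed as type I-like and 14 as gamma-like from textbook knowledge. Of the others, 6 belong to the p200 family, 4 are other IRFs, 5 are other STATs and 4 share only part of the name. Isg15 was not analysed here.

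The groups were 2 C57BL/6 mice that drank 200 mM acetate (C2, the main short-chain fatty acid of bacterial fermentation in the gut) from the age of 3 weeks, for 6 weeks, and 1 C57BL/6 control mouse, all in conventional housing. Kidney RNA of each mouse was hybridised to a single-colour Affymetrix array, so there are 3 arrays in all. With 1 control mouse, everything particular to that kidney enters every difference, and both acetate-fed mice are set against the same control array. Values are the deposited log2 expression values, on which a step of 1 is 2-fold, and their precision is limited by the number of arrays. The tissue label was met by its markers: all 8 kidney markers passed the filter described next, and uromodulin (Umod), made by the loop of Henle, was at 13.67 and 13.64 in the acetate-fed mice and 13.53 in the control. The nephron segments did not all stay level, and the tested adipose markers were higher in the control kidney. Both are given with the other cell markers at the end.

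Type I interferons are made by almost any cell that senses viral nucleic acid. They signal through their receptor, JAK1 and TYK2 to a transcription factor complex that includes STAT2 and IRF9, which binds the interferon-stimulated response element and turns on antiviral genes such as the Ifit, Oas and Mx families. Interferon gamma comes mainly from T and NK cells, acts at gamma-activated sites, and raises IRF1, the guanylate-binding proteins and the immunity-related GTPases that attack intracellular parasites. Many genes answer to both types, so the classes are a matter of degree.

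A gene was represented by its brightest tested probe set, where tested means in the brighter 60% of all probe sets (a mean over the arrays of at least 4.21). In all, 54 of the 66 genes had a tested probe set. By limma's test on all tested probe sets with Benjamini-Hochberg adjustment at 0.05, 11 of the 54 rose and 3 fell in acetate-fed kidneys, against 4.13% of all 13473 tested genes that rose and 3.98% that fell. The risers were Ly6e, Oasl2, Oas1a, Irf7, Bst2, Xaf1 and Ifit3 among the type I-like genes, Iigp1, Gbp2 and Ifi47 among the gamma-like genes, and Ifi209 of the p200 family. Gbp3, Isg20 and Ifi27l2a fell. Without any test, 3 genes (Ly6e, Oasl2, Ifi209) were at least 1.5-fold above the control in both acetate-fed mice and 2 (Gbp3, Isg20) at least 1.5-fold below it, against 1.75% and 1.60% of all tested genes. Ifi209 was under the filter's limit in the control and was tested through its acetate-fed values. Among genes with both groups over the limit, 10 members rose in limma's test, against 4.01% of all such genes, and 2 were at least 1.5-fold higher in both mice, against 1.65%. The limma calls lean on a spread shared over the probe sets whose acetate-fed values are not exactly equal, with 1 residual degree of freedom from the acetate-fed pair. After quantile normalization limma called 0 of all 13473 genes and so 0 members (9 members higher and 3 lower at an unadjusted p under 0.05). The count at 1.5-fold depends on the mouse: set against the control alone, mouse 1 had 9 members at least 1.5-fold higher and mouse 2 had 3, while each had 2 at least 1.5-fold lower. The share of all tested genes past that limit in 1 mouse alone is not given here.

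**Figure D1:**
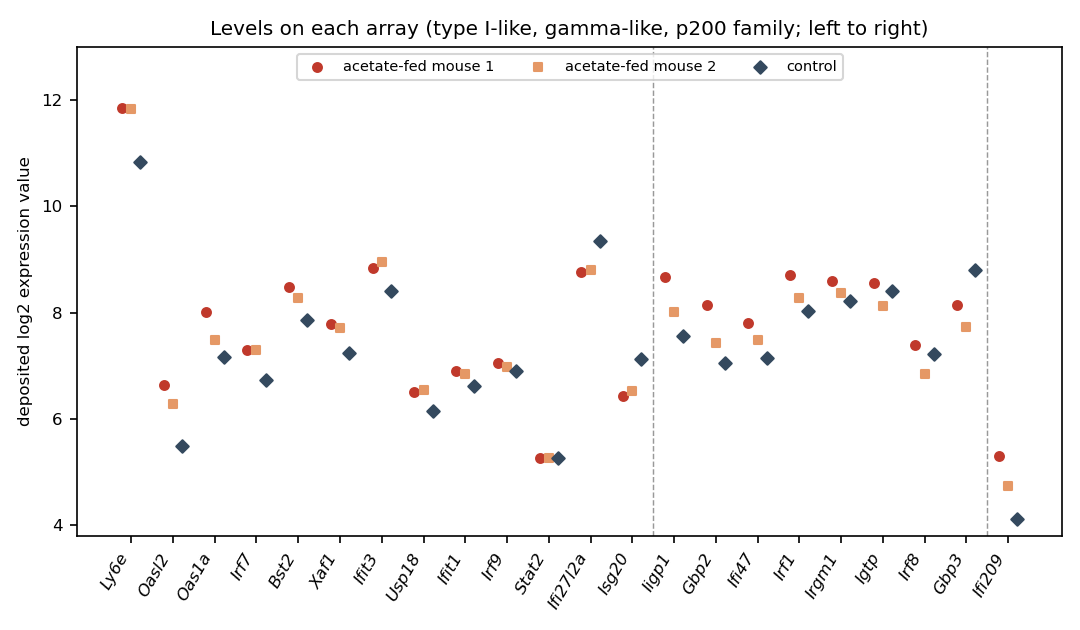
Deposited log2 expression value (vertical axis) of 22 genes on each array, with acetate-fed mouse 1 (circles), acetate-fed mouse 2 (squares) and the control (diamonds). Ly6e stands at 11.86 and 11.84 in the acetate-fed mice and 10.84 in the control, while Gbp3, Isg20 and Ifi27l2a lie below the control in both.

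The promoters below show the elements through which both interferon types act. Windows of 250 bases before to 50 bases after the gene start were taken from RefSeq on GRCm38.p6, and 52 of the 66 genes matched. The first 2 are the type I-like genes with the highest mean difference that held a response element core, and capitals mark its letters, GAAANNGAAA on either strand. The next 2 are the gamma-like genes with the highest mean difference that held a gamma-activated site, TTCNNNGAA, in capitals. The last is Gbp3, the gamma-like gene that fell, with its response element cores in capitals.
Oas1a, chr5:120907476-120907775, minus strand: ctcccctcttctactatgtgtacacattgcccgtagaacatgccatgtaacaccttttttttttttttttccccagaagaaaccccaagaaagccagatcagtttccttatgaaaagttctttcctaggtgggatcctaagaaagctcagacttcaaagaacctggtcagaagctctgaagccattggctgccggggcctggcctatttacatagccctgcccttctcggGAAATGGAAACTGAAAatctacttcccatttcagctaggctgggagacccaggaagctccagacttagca
Bst2, chr8:71537423-71537722, minus strand: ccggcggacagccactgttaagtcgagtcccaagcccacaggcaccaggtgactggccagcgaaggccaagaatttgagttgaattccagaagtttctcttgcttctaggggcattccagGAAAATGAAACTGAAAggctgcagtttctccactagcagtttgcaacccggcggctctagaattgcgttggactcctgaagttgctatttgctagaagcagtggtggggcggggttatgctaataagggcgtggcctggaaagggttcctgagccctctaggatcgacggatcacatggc
Irf1, chr11:53769764-53770063, plus strand: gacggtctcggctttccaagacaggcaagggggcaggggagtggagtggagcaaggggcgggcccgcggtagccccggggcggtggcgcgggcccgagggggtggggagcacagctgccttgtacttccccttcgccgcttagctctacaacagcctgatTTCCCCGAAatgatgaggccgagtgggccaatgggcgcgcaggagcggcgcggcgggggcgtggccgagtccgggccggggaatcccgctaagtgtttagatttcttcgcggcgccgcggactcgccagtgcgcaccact
Irgm2, chr11:58214727-58215026, plus strand: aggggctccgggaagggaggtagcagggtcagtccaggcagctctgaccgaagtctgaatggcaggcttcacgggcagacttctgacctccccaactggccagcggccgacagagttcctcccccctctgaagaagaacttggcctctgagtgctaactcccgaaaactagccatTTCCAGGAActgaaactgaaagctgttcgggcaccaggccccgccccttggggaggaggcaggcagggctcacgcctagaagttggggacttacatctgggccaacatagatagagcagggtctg
Gbp3, chr3:142559794-142560093, plus strand: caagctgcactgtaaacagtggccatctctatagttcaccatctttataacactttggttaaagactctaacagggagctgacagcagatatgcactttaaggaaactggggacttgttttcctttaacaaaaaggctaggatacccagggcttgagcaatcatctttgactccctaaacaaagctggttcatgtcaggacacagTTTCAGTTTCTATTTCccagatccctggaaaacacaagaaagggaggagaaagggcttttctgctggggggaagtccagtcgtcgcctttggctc
Oas1a and Bst2 each hold 2 overlapping cores, which begin at positions -20 and -14 in Oas1a and -130 and -124 in Bst2, counted from the gene start. The site of Irf1 begins at position -90 and that of Irgm2 at -75, and the Irgm2 window also holds a response element core at -64. Gbp3 holds 2 cores, at -45 and -39, on the opposite strand, and no match to the gamma-activated site in this window.

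The response element core was found in 13 of 29 type I-like promoters (44.8%) and 7 of 14 gamma-like promoters (50.0%), against 3.44% of all 32851 promoters of the same length. The gamma-activated site was found in 5 of 29 type I-like promoters (17.2%) and 5 of 14 gamma-like promoters (35.7%), against 8.30% of all. In 1 promoter, that of Bst2, a gamma-activated site overlapped a response element core. Of the risers, Ifit3 and Gbp2 also held a core, while the windows of Irf7, Oasl2, Xaf1, Ifi47 and Ifi209 held neither motif, and Ly6e and Iigp1 had no window in the table used. A match to these letters is a description of the sequence and says nothing of binding in these kidneys.

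**Figure D2:**
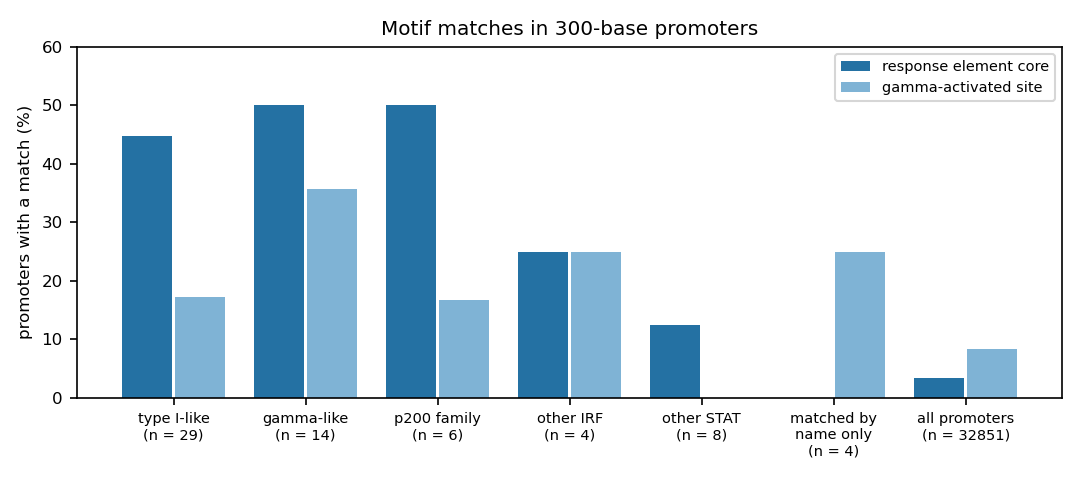
Share of promoters (vertical axis, percent) with a response element core (dark bars) or a gamma-activated site (light bars), by class, with the number of promoters under each. The core reaches 44.8% in type I-like and 50.0% in gamma-like promoters, against 3.44% of all promoters.

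Of the 29 tested type I-like genes, 18 lay above the control in both acetate-fed mice and 4 below it in both, against 26.0% and 30.9% of all tested genes. Their median log2 difference from the control was 0.16 in mouse 1 and 0.12 in mouse 2, and that of all tested genes was 0.00 in each. Limma's test called 7 higher and 2 lower, against 4.13% and 3.98% of all tested genes.

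Ly6e, an interferon-induced protein anchored to the cell surface that blocks entry of some viruses, was at 11.86 and 11.84 in acetate-fed mice 1 and 2, against 10.84 in the control. The acetate-fed pair lay close together and well above the control. The rise was 2.03-fold in mouse 1 and 2.00-fold in mouse 2 (limma adjusted p = 5.26e-07). A second Ly6e probe set gave log2 differences of 0.99 and 0.92. Oasl2, an oligoadenylate synthetase-like protein, was at 6.65 and 6.29 in the acetate-fed mice and 5.49 in the control, 2.23-fold and 1.75-fold higher (limma adjusted p = 0.000176). Oas1a, an enzyme that makes the oligoadenylates that activate RNase L, was at 8.02 and 7.49 in the acetate-fed mice, against 7.18 in the control (limma adjusted p = 0.0291). Mouse 1 carried most of that difference, 1.79-fold against 1.24-fold in mouse 2. Across the 9 tested Oas and Oasl genes, 7 were above the control in both mice and 1 (Oas1e, by 0.01) below it in both. The shares of all tested genes were 26.0% and 30.9%. In 5 of the 9 (Oas1c, Oas1e, Oas1f, Oas2 and Oas3) the acetate-fed values were exactly equal, so these pairs give no measure of spread. Oas1b differed by 0.34 and 0.24, and Oas2 by 0.16 in each mouse. The Oas1 genes are close paralogs, so their probe sets may share signal.

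Irf7, the factor that amplifies type I interferon production, was at 7.31 in both acetate-fed mice and 6.74 in the control, a 1.48-fold rise (limma adjusted p = 0.0133). Its acetate-fed values were exactly equal, as were 33.7% of such pairs among tested probe sets, so the equal values give no measure of spread. Bst2, tetherin, which holds budding virus at the cell surface, was at 8.49 and 8.27 against 7.86 in the control (limma adjusted p = 0.0172). Xaf1, an interferon-induced promoter of apoptosis, was at 7.78 and 7.72 in the acetate-fed mice, against 7.24 in the control (limma adjusted p = 0.022). In each of these genes the acetate-fed arrays were both above the control.

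The Ifit proteins bind foreign RNA and stop its translation. Ifit3 was at 8.85 and 8.96 in the acetate-fed mice and 8.41 in the control, 1.36-fold and 1.46-fold higher (limma adjusted p = 0.017). Ifit1, at 6.90 and 6.84 against 6.63, and Ifit2, at 6.69 and 6.68 against 6.37, did not pass (limma adjusted p = 0.558 and 0.34). Of the 4 tested Ifit genes, Ifit1bl1 alone was below the control in both mice, by 0.12 and 0.20 on the log2 scale. Usp18, the protease that removes ISG15 from proteins and damps the type I receptor, was at 6.51 and 6.55 in the acetate-fed mice, against 6.15 in the control, and missed the threshold (limma adjusted p = 0.167). Mx2, a dynamin-like antiviral GTPase, differed by 0.35 and 0.28.

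The sensors and the signalling complex itself had no calls. Ddx58 (RIG-I) and Ifih1 (MDA5), the cytoplasmic sensors of viral RNA, differed by 0.10 and 0.00 and by 0.00 and -0.09 in mice 1 and 2 on their brightest probe sets. Of the other 2 tested Ddx58 probe sets, both dimmer, 1 had the mice on either side of the control, by 0.48 and -0.20, and the other differed by 0.00 and 0.08. Stat2 had the same deposited value of 5.27 on all 3 arrays, and Irf9 was at 7.05 and 6.97 in the acetate-fed mice, against 6.90 in the control (limma adjusted p = 1). Rsad2, viperin, differed between the acetate-fed mice, at 9.66 in mouse 1 and 10.07 in mouse 2 against 9.71 in the control, and its other 2 tested probe sets also had the larger difference in mouse 2 (0.15 and 0.40, and 0.01 and 0.24).

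Isg20, an exonuclease that degrades RNA, went the other way, at 6.43 and 6.53 in the acetate-fed mice and 7.13 in the control. Both acetate-fed arrays were below the control, 1.62-fold and 1.51-fold lower (limma adjusted p = 0.00603). Ifi27l2a, a small membrane protein of the Ifi27 family, was at 8.78 and 8.81 against 9.36 in the control, log2 differences of -0.58 and -0.55 (limma adjusted p = 0.00487). The related Ifi27 and Ifi27l2b lay within 0.10 of the control in both mice.

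**Figure D3:**
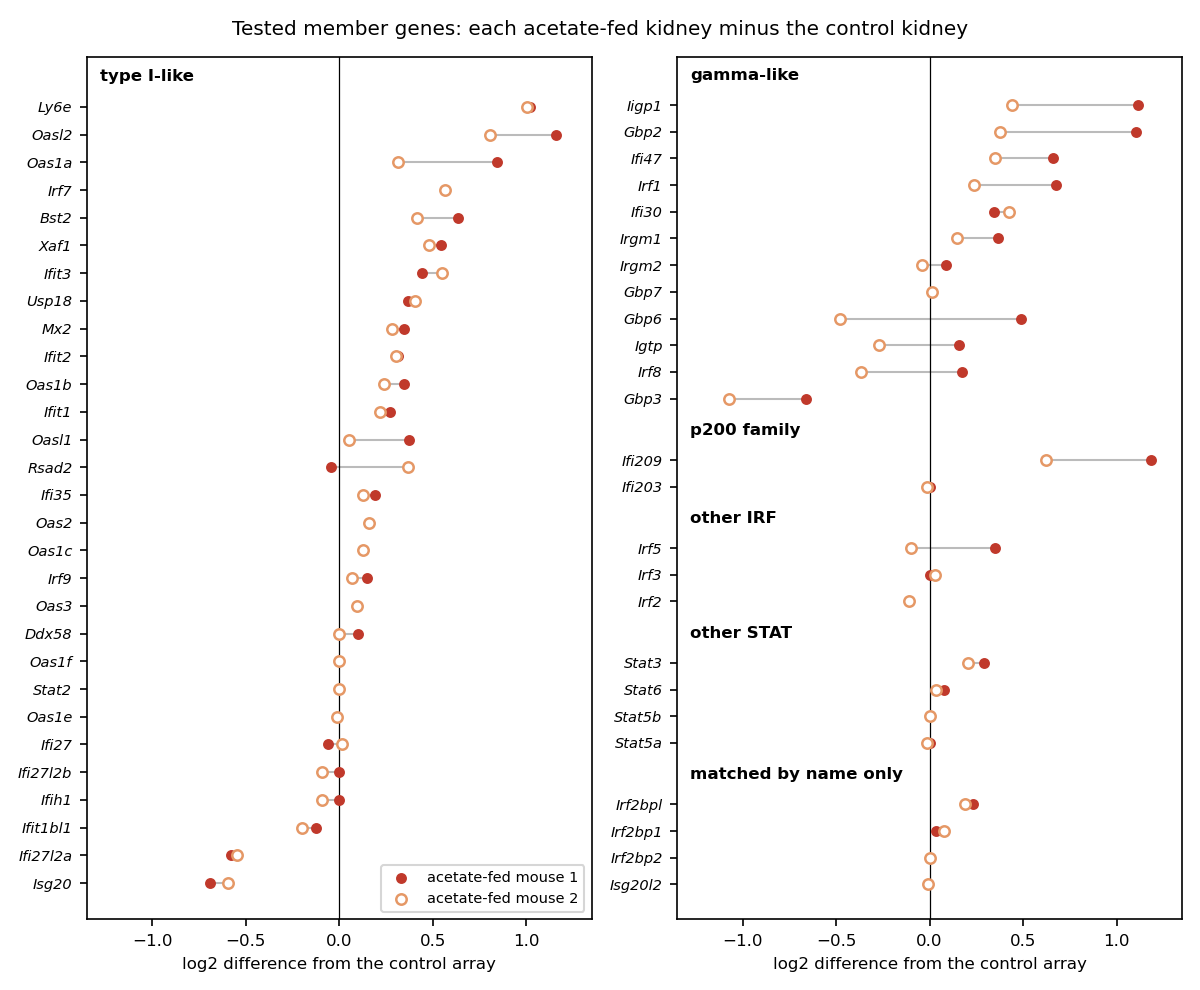
Log2 difference of each acetate-fed kidney from the control kidney (horizontal axis) for the 54 tested genes, by class, with mouse 1 as filled and mouse 2 as open circles. Ly6e has nearly equal differences in the pair, and the acetate-fed values of Irf7 are exactly equal. The gamma-like Iigp1, Gbp2, Gbp6, Irf1 and Irf8 lie further to the right in mouse 1, as do the type I-like Oas1a, Oasl2, Oasl1 and Bst2.

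The gamma-like genes lay above the control more often in mouse 1 than in mouse 2. Of the 12 tested, 11 were above the control in mouse 1 and 7 in mouse 2, against 4464 and 4912 of all 13473 tested genes. In both mice 7 were above it and 1 was below it, against 26.0% and 30.9% of all tested genes. The median of their differences was 0.36 on the array of mouse 1 and 0.08 on that of mouse 2. The differences ran from -0.66 to 1.11 in mouse 1 and from -1.07 to 0.44 in mouse 2. A median near 0 in mouse 2 therefore joins genes above the control with genes below it. Limma's test called 3 higher and 1 lower, against 4.13% and 3.98% of all tested genes.

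Iigp1, an immunity-related GTPase that coats parasite vacuoles, was at 8.68 in mouse 1 and 8.01 in mouse 2, against 7.56 in the control. That is 2.16-fold and 1.36-fold higher (limma adjusted p = 0.00427), and a second Iigp1 probe set gave log2 differences of 0.52 and 0.19. Gbp2, a guanylate-binding protein recruited to the same vacuoles, was at 8.15 and 7.43 in the acetate-fed mice, against 7.05 in the control, 2.15-fold and 1.30-fold higher (limma adjusted p = 0.0103). Its second probe set gave 1.25 and 0.34. Ifi47, another GTPase of the same family, was at 7.80 and 7.49 against 7.14 in the control (limma adjusted p = 0.0383). In all 3 genes both acetate-fed arrays were above the control and mouse 1 was the higher.

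Irf1, the transcription factor through which much of the gamma response runs, was at 8.72 and 8.28 in the acetate-fed mice and 8.04 in the control, and did not pass (limma adjusted p = 0.0722). Ifi30, a lysosomal thiol reductase used in antigen processing, was at 10.07 and 10.15, against 9.72 in the control (limma adjusted p = 0.057), and was the gamma-like gene in which mouse 2 was the higher. Irgm1, a regulator of the other GTPases, was at 8.59 and 8.37 in the acetate-fed mice, against 8.23 in the control (limma adjusted p = 0.423).

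In 4 of the 12 tested gamma-like genes the acetate-fed mice lay on either side of the control, against 1388 of all 13473 tested genes. Gbp6 was at 7.12 in mouse 1 and 6.15 in mouse 2, against 6.63 in the control. Igtp, a GTPase also known as Irgm3, was at 8.56 and 8.13 against 8.40 in the control. Irf8, which directs the development of macrophages and dendritic cells, was at 7.39 and 6.86 against 7.22 in the control, and a second Irf8 probe set also differed in sign between the mice, by 0.15 and -0.19. Irgm2 showed the same order on a smaller scale, 0.09 and -0.04 from the control. None of these 4 passed limma's test (adjusted p = 1 for each).

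Gbp3 fell. It was at 8.14 and 7.73 in the acetate-fed mice and 8.80 in the control, with both acetate-fed arrays below the control. The decrease was 1.58-fold in mouse 1 and 2.10-fold in mouse 2 (limma adjusted p = 0.000267). Within the pair mouse 1 was above mouse 2 by 0.42, the same order as in Gbp2 and Gbp6. Gbp7 had equal values in the acetate-fed mice, within 0.02 of the control. Gbp genes are a family of close paralogs, and each was read from 1 or 2 tested probe sets whose cross-hybridisation is unknown here.

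The contrast between the classes turned on the mouse. The type I-like median minus the gamma-like median was -0.20 in mouse 1 and 0.04 in mouse 2, and no test was made, since genes are not replicates. A comparison that leaves out the control, chosen after the values were seen, is the difference between the acetate-fed mice themselves. Its median was 0.02 for type I-like and 0.42 for gamma-like genes. Mouse 1 was above mouse 2 in 16 of 29 type I-like genes, 10 of 12 gamma-like genes and 31.3% of all tested genes. Mouse 2 was above in 6, 1 and 5236 of them, and 7, 1 and 4022 were exact ties, which draw a median towards no difference. The order was not confined to gamma-like genes. Among interferon targets that the name rule did not take, given below, mouse 1 was above in 18 of 19 type I and 11 of 12 gamma targets. With 1 array per mouse this describes a pair of animals and not a condition.

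**Figure D4:**
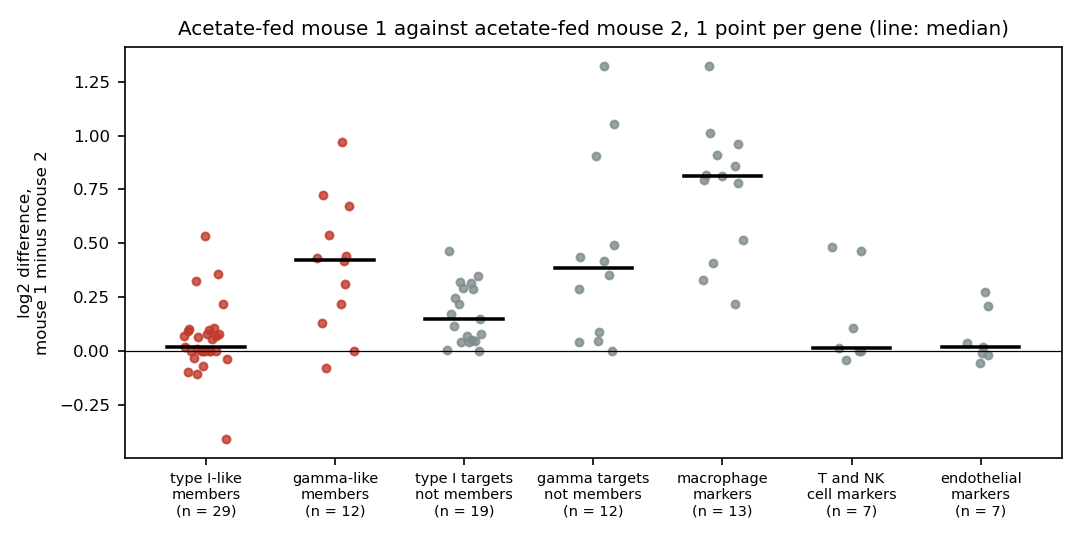
Log2 difference of acetate-fed mouse 1 minus acetate-fed mouse 2 (vertical axis), 1 point per tested gene and a line at the median, for the type I-like and gamma-like genes and for other lists. The medians are 0.02 for type I-like members, 0.42 for gamma-like members and 0.81 for macrophage markers.

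The p200 proteins sense DNA and respond to interferon. Only 2 of the 6 had a tested probe set. Ifi209 was at 5.31 and 4.75 in the acetate-fed mice and 4.12 in the control, 2.28-fold and 1.54-fold higher (limma adjusted p = 0.00206). Its control value lies under the limit of 4.21, so the gene was tested through its acetate-fed values. A second Ifi209 probe set, below the filter, was 0.60 and 0.09 above the control. Ifi203 lay within 0.02 of the control. The p200 genes are near-identical in part, and several of their probe sets were left unnamed for that reason.

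None of the other transcription factors passed limma's test. Stat3, which carries the signals of interleukin-6 type cytokines, was at 9.20 and 9.12 in the acetate-fed mice, against 8.91 in the control (limma adjusted p = 0.396), and its other 2 tested probe sets were higher by 0.36 and 0.32 and by 0.39 in each mouse. Stat6, Stat5a and Stat5b differed from the control by 0.08 at most on their brightest probe sets, and a second Stat5a probe set by -0.01 and -0.12. Irf3, the constitutive factor downstream of nucleic acid sensors, differed by 0.00 and 0.03, Irf2, a repressor of interferon genes, by -0.11 in each mouse, and Irf5, a factor of Toll-like receptor signalling, by 0.35 and -0.10. The 4 genes matched by name only, Isg20l2 and the IRF2-binding proteins Irf2bp1, Irf2bp2 and Irf2bpl, differed by 0.23 at most on their brightest probe sets, while a second Irf2bpl probe set was higher by 0.48 and 0.31.

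The interferons themselves were near the floor of the array. Of 9 interferon ligand genes with a probe set, Ifna1 was the 1 that passed the filter, with 4.64 on each array. Ifnb1 was at 3.61 in both acetate-fed mice and 3.66 in the control, and Ifng at 2.92 and 2.79 against 2.92 in the control. The 9 receptor and kinase genes were all tested and 0 passed limma's test (0 at an unadjusted p under 0.05), with medians of 0.06 in each mouse. Of 8 tested sensors and adaptors 0 passed as well, also with 0 at an unadjusted p under 0.05.

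Among 6 inhibitors, Socs3, which blocks cytokine receptor signalling, rose to 7.72 and 6.43 in the acetate-fed mice, against 5.70 in the control (limma adjusted p = 0.00069). Cish, an inhibitor induced through STAT5, fell to 8.52 and 9.23, against 9.84 in the control (limma adjusted p = 0.000374). Socs1, the inhibitor that interferons induce, was at 4.34 and 4.30 against 4.30 in the control.

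Interferon targets that the name rule did not take were also followed. Of 19 tested type I targets, 4 rose and 0 fell in limma's test, and their medians were 0.36 in mouse 1 and 0.19 in mouse 2. The 4 were Ifitm1 and Ifitm3, which block viral fusion, Rtp4 and Trim30a. Ifitm3 was at 10.63 and 10.28 in the acetate-fed mice and 9.68 in the control (limma adjusted p = 0.000225). Of 12 tested gamma targets 4 rose and 0 fell, and the list medians were 0.64 for mouse 1 and 0.14 for mouse 2. Nlrc5, the activator of MHC class I genes, was at 5.63 and 5.21 against 4.39 in the control, and Cxcl10, a chemokine for activated T cells, at 7.61 and 6.71 against 6.24 in the control. Psmb8, an immunoproteasome subunit, and Cxcl9 also rose. Mouse 1 was above mouse 2 by a median of 0.15 for the type I targets and 0.39 for the gamma targets.

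**Figure D5:**
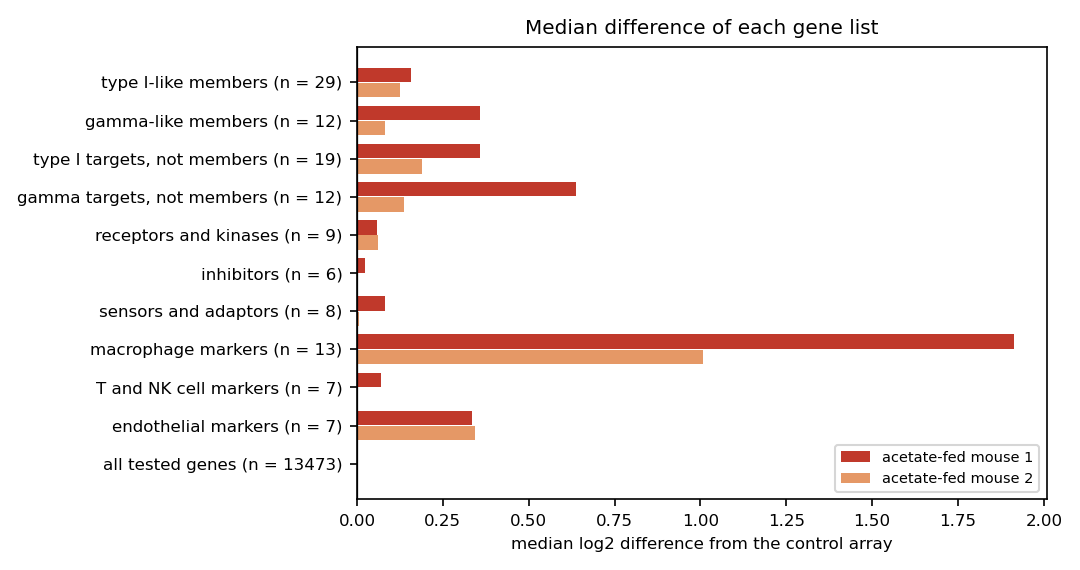
Median log2 difference from the control array (horizontal axis) of each gene list in acetate-fed mouse 1 (dark bars) and acetate-fed mouse 2 (light bars), with the number of tested genes. Gamma-like members have medians of 0.36 and 0.08, type I-like members 0.16 and 0.12, and macrophage markers 1.91 and 1.01.

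The lists of cell markers did not all move in the same direction. Of 13 tested macrophage markers, 12 rose in limma's test and all 13 were higher in mouse 1 than in mouse 2, with a mean level over the list of 9.21 in mouse 1 and 8.46 in mouse 2, against 7.48 in the control, and Itgam was below the filter. Of 7 tested T and NK cell markers 0 passed limma's test (1, Cd3d, at an unadjusted p under 0.05). Their mean levels were 5.51 and 5.37 against 5.33 in the control. In both mice 3 were above the control and 0 below it, against 26.0% and 30.9% of all tested genes. Below the filter, Cd3g was at 4.23 and 3.93 against 3.72 in the control, and Gzmb at 4.09 and 3.61 against 3.47. Ncr1, also below it, was at 3.45 in both mice against 3.21. Of 7 endothelial markers, Pecam1 and Cdh5 rose and the mean levels were 8.71 and 8.65 against 8.35 in the control. Of 6 markers of plasmacytoid dendritic cells 3 were tested, all 3 were above the control in both mice, and the mean levels were 8.25 and 8.01 against 7.61 in the control. Bst2, itself a member, and Ly6d rose, Ly6d by 1.06 and 0.59 on the log2 scale (limma adjusted p = 0.00129), while the defining marker Siglech was below the filter at 4.17 on each array. Of the 8 kidney markers 2 rose, the collecting duct water channel Aqp2 by 1.42-fold and 2.18-fold (limma adjusted p = 0.000628) and the loop of Henle transporter Slc12a1 by 1.41-fold and 1.64-fold (limma adjusted p = 0.00111). The proximal tubule genes Lrp2, Slc34a1 and Kap lay below the control in both mice and did not pass (limma adjusted p = 0.654, 0.442 and 0.106), and the list's mean levels were 12.08 and 12.11 against 11.94 in the control. All 5 tested adipose markers fell in limma's test, with mean levels of 5.83 and 5.71 in the acetate-fed mice, against 9.22 in the control kidney. Adipoq, with the largest difference of the 5, was at 4.38 and 3.87 in the acetate-fed mice, against 9.98 in the control. The control array, which enters every difference, thus held the higher values of these fat genes. The part of these cells in the differences of the interferon-induced genes, up or down, was not tested. In whole tissue, fewer cells of a type and less RNA per cell cannot be told apart.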

How the data were processed

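Each of the 3 kidney arrays is 1 mouse. The values deposited by the authors are log2 expression values of 45101 probe sets. The submitters' processing notes name MAS5, with no version or filter. MAS5 summarises each array by itself, while these values are often exactly equal between arrays and between probe sets, so how they were summarised is not settled, nor is what an exact tie says of the spread. Array medians lie between 4.91 and 4.94, and depth has no meaning for arrays, whose number limits precision. Gene names came from the platform annotation. Of 45037 that are not Affymetrix controls, 34945 had 1 symbol, 932 several and 9160 none listed. All 102 member probe sets matched RefSeq by Entrez identifier.

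The upper 60% of probe sets by mean (27022) were tested with limma 3.58.1 in R 4.3.3, acetate against control, with an intensity trend and Benjamini-Hochberg adjustment over all of them. Because 33.7% of acetate-fed pairs are exactly tied, the variance prior came from the untied pairs (26.5 prior degrees of freedom) and was applied to all; an exactly tied pair may carry less information than 2 arrays. The fit was tested on simulated data whose spread followed intensity smoothly, much as the fit assumes. That run cannot show whether the calls hold for these arrays. Tables and plots used Python 3.11.15, pandas 2.3.3 and matplotlib 3.10.9.

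Members, classes and lists were chosen with earlier results of these data known. Genes named in full were those past the test, those at least 1.5-fold from the control in both mice, class extremes and a fixed list. Other genes are named where a family or a count called for it, after their values were seen. Alternatives covered the prior, ties, trend, filter, normalization, choice of probe set, fold limit, classes, motif letters and each acetate-fed mouse left out.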

Additional observations from a re-analysis of the deposited data

How the results depend on the processing

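The directions of the 14 called genes held under every alternative run for them, and their calls did not. Only the changes of normalization and of probe set could have turned a direction. The prior, trend, filter and tie settings leave the differences as they are. Leaving out a mouse cannot turn a direction either, since both mice lay on the same side of the control in each of the 14. On the brightest probe set, 7 of the 54 members (Gbp6, Igtp, Irf8, Irgm2, Irf5, Ifi27 and Rsad2) had the mice on either side of the control. The count for all tested genes was 1388 of 13473. None of these members was called, and the sign of that probe set turns with the mouse left out. Other tested probe sets of Gbp6 and Irf8 were split in the same way, while those of Rsad2 and Ifi27 lay above the control in both mice. Limma called 11 members higher and 3 lower in the fit reported. With the prior taken from all tested probe sets the counts were 6 and 1, and only 2 of the 14 reported calls were among them. The counts were 1 and 0 in the upper 40% of probe sets. They were 0 and 0 after quantile normalization, after median centring and with the probe sets of a gene averaged. Over all genes the calls were 557 higher and 536 lower in the fit reported, 535 and 663 with the prior from all tested probe sets, 64 and 109 of 10358 in the upper 40%, 0 and 0 after quantile normalization, 1 and 11 after centring and 0 and 0 with probe sets averaged, so the losses in the last 4 settings run over the whole array. At an unadjusted p under 0.05 the counts in the last 4 settings were 13 and 3, 9 and 3, 10 and 3, and 16 and 3, and the estimated prior degrees of freedom were 5.69, 2.42, 3.53 and 2.53, against 26.5 in the fit reported. Ly6e was the member still called in the upper 40%, and Ly6e and Irf7 with the prior from all probe sets. Without the intensity trend Oas1a (adjusted p = 0.0674) and Ifi47 (adjusted p = 0.0654) were lost. At limits of 1.2-fold and 2-fold, 15 and 1 members were higher in both mice and 3 and 0 lower. With 1 mouse left out there is no residual degree of freedom and no test: the members at least 1.5-fold higher were 3 without mouse 1 and 9 without mouse 2, and 2 were lower in either case. The type I-like median of 0.16 ranged from 0.12 to 0.16 with 1 mouse left out, and was 0.23 without tied pairs, 0.20 in the upper 40% and 0.13 after centring. The gamma-like median of 0.14 ranged from 0.081 to 0.36. The difference between the class medians, 0.02 over both mice, turned to -0.030 without tied pairs and ranged from -0.20 to 0.043 with 1 mouse left out, so it has no stable sign. A stricter gamma-activated site (TTCCNGGAA) was found in 2 of 14 gamma-like promoters in place of 5. No paired analysis was possible, since there is 1 control mouse and the labels pair no animals. The causes of these changes were not tested.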

Other observations

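The 12 member genes below the filter (Gbp2b, Gbp8, Ifi202b, Ifi204, Ifi207, Ifi213, Ifi44l, Ifit1bl2, Irf4, Mx1, Oas1h and Stat4) had 17 probe sets, with differences from the control between -0.42 and 0.53 in either mouse. A further 10 probe sets pair a matching symbol with other symbols and were left unnamed. Of these 6 passed the filter, and their differences from the control lay between -0.03 and 1.11.

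Values recur between probe sets as well as between arrays. The control array holds 18461 distinct values over 45037 probe sets and the acetate-fed arrays 16433 and 15981, and 30.0% of probe sets have 1 value on all 3 arrays. Stat2, Oas1f and Stat5b are among these.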
